A study of Mus musculus with 9 samples.

Results

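The matrix metalloproteases Mmp2, Mmp8, Mmp9, Mmp12, Mmp13, Mmp14 and Mmp25 and their inhibitors Timp1, Timp2 and Timp3 were followed in C1498, a mouse leukaemia cell line, after infection with hairpins against Zeb1. These 10 genes, of 19505 named genes on the array, were chosen by symbol, and each was read by 1 probe set. There were 9 arrays in 3 groups of 3: ZEB C cells carried hairpin sequence C, ZEB D cells carried hairpin sequence D, and SCR cells carried a negative control construct. All 9 cultures were lentivirus-infected cells of the same line that expressed green fluorescent protein and were isolated 2 weeks after infection. The labels do not state if replicate arrays stem from separate infections or from 1, and the p-values reflect the spread between arrays, which may be technical. Arrays are named by group and number as labelled, for example ZEB C 12.

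Matrix metalloproteases are zinc-dependent enzymes that are made as inactive zymogens and cut collagens, other matrix proteins and surface proteins once their propeptide is removed. TIMPs bind the active site and block it. In blood cells, members of this family are known from neutrophil granules, macrophages and invading leukaemia cells, and fibroblasts are a main source of several of them in tissues. Zeb1, the target of the hairpins, is a zinc-finger factor that binds E-box sequences and is known for its part in epithelial-mesenchymal transition.

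Upstream sequences were read for these genes because Zeb1 binds DNA and because AP-1 factors are the best known activators of several metalloprotease promoters. RefSeq sequences of build GRCm38.p6 gave 9 windows of 250 bases before a transcription start for 8 of the 10 genes; Mmp2 and Mmp9 had none. The Zeb1-type E-box CAGGTG, which reads CACCTG on the other strand, lay in the windows of 2 members, Timp2 and Timp3, and in 17.2% of all 32851 windows of that length. The AP-1 motif TGACTCA, which reads TGAGTCA on the other strand, lay in windows of 2 members, Mmp13 and Mmp12, and in 4.46% of all windows. No window of a member held both motifs. The E-box starts 107 bases before the Timp2 start and 232 bases before the Timp3 start, and the AP-1 motif starts 35 bases before the Mmp13 start and 44 bases before the more downstream of the annotated Mmp12 starts. The windows with a match are printed 5′ to 3′ on the strand of the gene, with the motif in capitals. A match is a description of the letters and no evidence of binding.
Timp2, chr11:118355412-118355661, minus strand: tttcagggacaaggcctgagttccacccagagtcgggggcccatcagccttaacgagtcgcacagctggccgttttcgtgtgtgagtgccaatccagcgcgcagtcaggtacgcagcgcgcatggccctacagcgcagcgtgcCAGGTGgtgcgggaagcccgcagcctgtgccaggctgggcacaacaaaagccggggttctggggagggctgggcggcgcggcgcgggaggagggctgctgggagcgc
Timp3, chr10:86300162-86300411, plus strand: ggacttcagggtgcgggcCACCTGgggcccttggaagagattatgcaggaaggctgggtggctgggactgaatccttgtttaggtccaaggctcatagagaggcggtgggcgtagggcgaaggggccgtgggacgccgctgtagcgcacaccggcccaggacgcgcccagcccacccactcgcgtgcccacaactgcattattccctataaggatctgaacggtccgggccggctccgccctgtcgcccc
Mmp13, chr9:7272264-7272513, plus strand: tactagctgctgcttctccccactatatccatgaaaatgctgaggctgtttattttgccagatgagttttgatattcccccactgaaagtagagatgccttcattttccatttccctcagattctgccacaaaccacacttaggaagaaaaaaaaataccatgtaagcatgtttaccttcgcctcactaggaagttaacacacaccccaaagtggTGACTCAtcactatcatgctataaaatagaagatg
Mmp12, chr9:7347124-7347373, plus strand: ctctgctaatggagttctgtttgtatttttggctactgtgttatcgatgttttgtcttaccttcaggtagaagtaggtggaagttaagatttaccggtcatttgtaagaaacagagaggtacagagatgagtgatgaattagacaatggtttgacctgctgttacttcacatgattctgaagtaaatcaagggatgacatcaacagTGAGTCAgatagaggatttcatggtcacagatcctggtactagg

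Before the members, the labels were checked. Zeb1 (chromosome 18) had log2 signals of 10.41, 10.01 and 10.34 on ZEB C arrays, 9.56, 9.26 and 9.40 on ZEB D arrays, and 10.52, 10.29 and 10.56 on SCR arrays. Its log2 fold change in ZEB D was -1.05, with an SE of 0.16 (adjusted p = 0.0263 in limma), and its log2 fold change in the arrays labelled ZEB C was -0.20 ± 0.16 (SE; adjusted p = 0.895 in limma). The ZEB D call was lost in 7 of 17 alternative settings, among them each SCR array and ZEB D 14 or 15 left out (highest adjusted p of 0.157 in limma). The ZEB C arrays are therefore called by their label, and no ZEB C difference below is known to follow a lower Zeb1 level. Ptprc, the pan-leukocyte antigen CD45, was at 14.40 to 15.31 on the 9 arrays. Of 10 haematopoietic and myeloid markers only Ptprc and Csf2rb had means above 7.10, the median of all probe set means. Itgam (6.08 to 6.70), Spi1 (5.00 to 5.72), Cebpa (5.92 to 6.34) and Csf3r (5.85 to 6.30), defining myeloid genes, lay below it on every array. Cd3g (15.38 to 15.71), Cd3e (13.41 to 15.32) and Cd3d (10.65 to 12.74), chains of the T cell receptor complex, lay above it on every array. Of the 12 T and NK cell markers 5 had means above it, these 3 with Cd4 and Klrk1, and 7 did not, among them Cd5, Cd8a, Ncr1 and Tbx21. Of 12 neutrophil granule markers, 1 had a mean above that median. C1498 is known as a model of acute myeloid leukaemia; its defining myeloid markers were thus low here, which on levels of single probe sets does not settle the identity of the cells.

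The 10 members gave low signals in these cells, with the exception of 2 values on 1 array. Of 90 values (10 genes on 9 arrays), 88 lay at or below the median of 7.10, and the 2 above it, for Mmp2 and Timp2, came from ZEB C 12. Outside ZEB C 12 the members ran from 4.44 to 6.70. Each member's mean lay between 4.24 and 7.49, the range that held the central 95% of the means of 1091 olfactory receptor probe sets, genes that blood cells are not known to use. The files hold no detection call, a probe set's background depends on its sequence, and a low signal therefore does not show that a gene was silent.

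**Figure D1:**
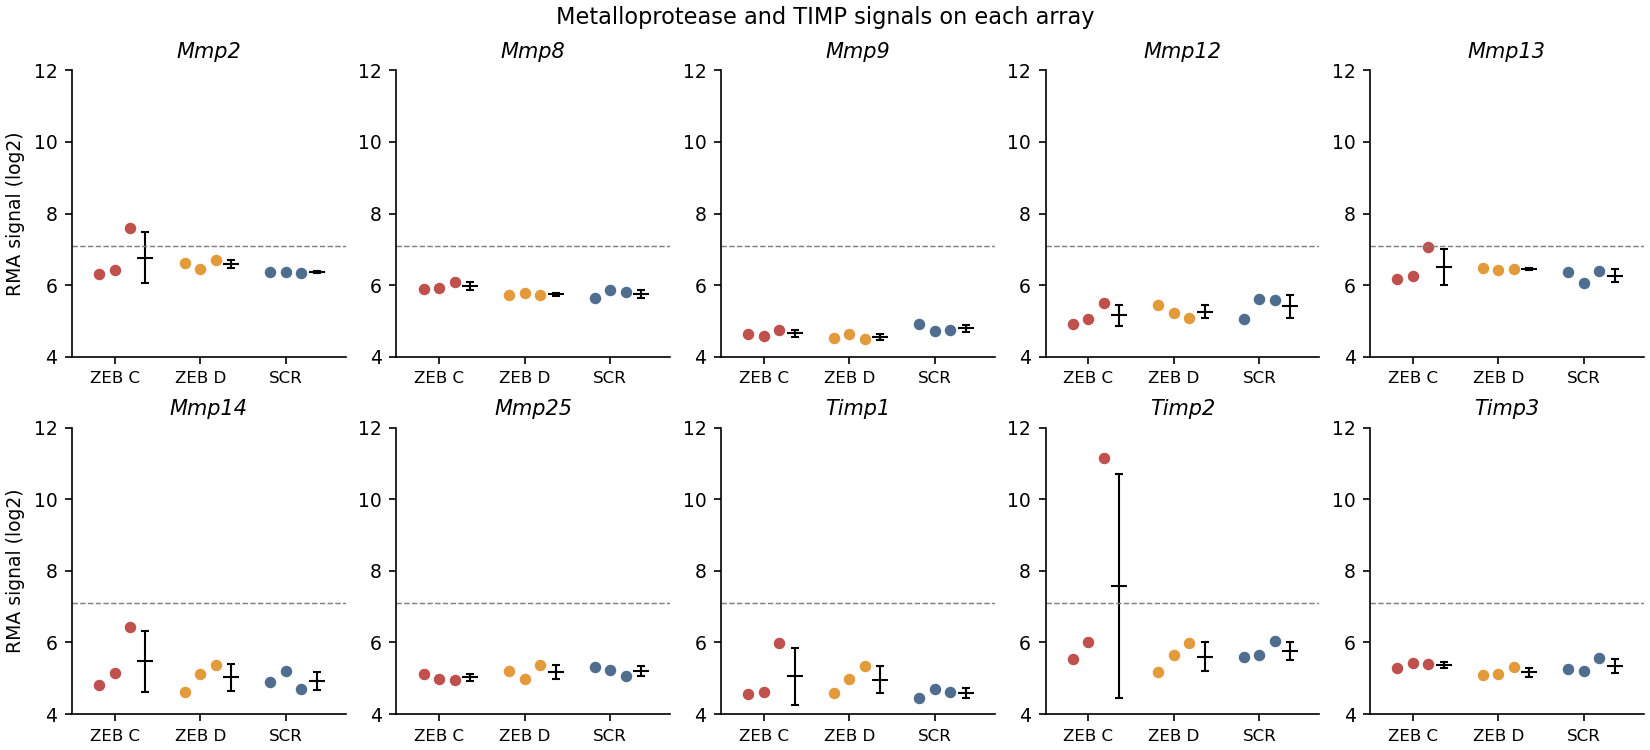
Log2 RMA signal (vertical axes) of the 10 genes on ZEB C, ZEB D and SCR arrays. Each coloured point is 1 array, the black bar beside each group is its mean ± SD (n = 3), and the dashed line is the median of all probe set means, 7.10. Timp2 on ZEB C 12 stands at 11.16, and the values outside ZEB C 12 lie under the dashed line.

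None of the 10 members was called in any comparison with limma at an adjusted p under 0.05. In ZEB C against SCR 0 of 10 were called, against 0.945% of the 19572 probe sets tested; in ZEB D against SCR 0 of 10, against 0.843%; and in ZEB D against ZEB C 0 of 10, against 0.848%. At an unadjusted p under 0.05 the counts were also 0, 0 and 0, where the shares of all probe sets were 8.77%, 13.6% and 11.7%. With so small a share called, a count of 0 among 10 genes is near the background. The median log2 fold change of the members was 0.22 in ZEB C against SCR, where that of all probe sets was 0.00. It was -0.02 in ZEB D against SCR and -0.14 in ZEB D against ZEB C, where that of all probe sets was 0.04 in both. Without ZEB C 12 the members' medians were 0.00, -0.02 and 0.08. Both hairpins were compared with the same 3 SCR arrays, so their comparisons are not independent.

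The gelatinases Mmp2 and Mmp9 cut denatured collagen and the collagen of basement membranes. Mmp2 (chromosome 8) read 6.31, 6.42 and 7.59 on ZEB C arrays, 6.61, 6.46 and 6.70 on ZEB D arrays, and 6.37, 6.38 and 6.33 on SCR arrays. The ZEB D arrays were all above the SCR arrays, while the ZEB C arrays overlapped them. The log2 fold change was 0.23 in ZEB D against SCR, with a 95% interval of -0.44 to 0.90 (limma adjusted p = 0.776). In ZEB C against SCR it was 0.41 (-0.26 to 1.09), and without ZEB C 12 it was 0.00 (-0.34 to 0.35). The spread is pooled over the 3 groups, so ZEB C 12 also widened the Mmp2 interval in ZEB D against SCR. Without that array the ZEB D interval was -0.08 to 0.54 (limma adjusted p = 0.468). Mmp9 (chromosome 2), gelatinase B, stored in neutrophil granules, read 4.64, 4.58 and 4.76 on ZEB C arrays, 4.52, 4.65 and 4.49 on ZEB D arrays, and 4.92, 4.73 and 4.75 on SCR arrays. The ZEB D arrays were all below the SCR arrays, and the ZEB C arrays overlapped them. Its log2 fold change of -0.25 in ZEB D against SCR had an interval of -0.55 to 0.05 and the lowest adjusted p of any member (limma adjusted p = 0.458). In ZEB C against SCR it was -0.14 (-0.44 to 0.16).

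Most genes around Mmp9 had lower means on ZEB C and on ZEB D arrays than on the SCR arrays they share. Of the 10 genes on each side of it with a mean above 7.10, 18 of 20 had a lower mean in ZEB C than in SCR and 17 of 20 in ZEB D than in SCR, against 54.3% and 54.9% of all 9762 genes with such a mean. Their median log2 fold changes were -0.68 in ZEB C and -0.90 in ZEB D. Pcif1 and Cse1l were called lower in ZEB C, 2 of 20 against 0.286% of all probe sets, and Pcif1 and Ncoa3 in ZEB D, 2 of 20 against 0.445%. Eya2 (1.62 and 0.98) and Spint4 (0.18 and 0.41) had higher means in both. The medians around the other members lay between -0.21 and 0.09 in ZEB C and between -0.13 and 0.12 in ZEB D, which are smaller shifts than around Mmp9. The part of that stretch in the Mmp9 values was not tested.

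**Figure D2:**
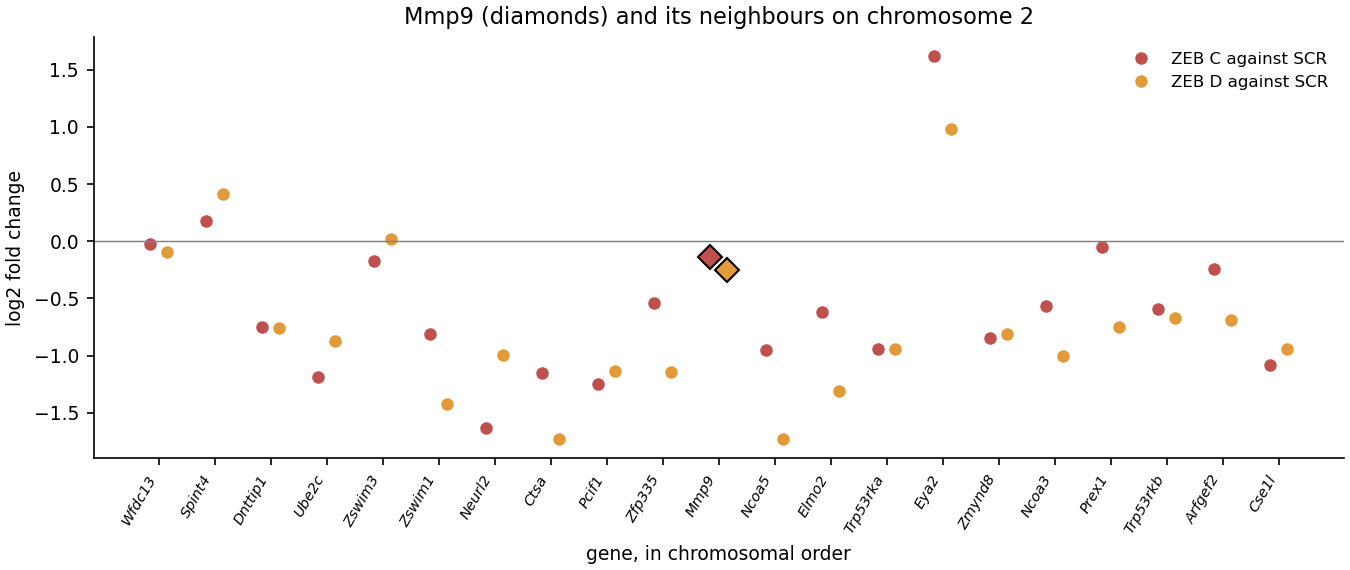
Log2 fold change (vertical axis) of Mmp9 (diamonds) and of the 20 nearest genes with a mean above 7.10 (circles), in chromosomal order, for ZEB C against SCR (red) and ZEB D against SCR (orange). The neighbours have medians of -0.68 in ZEB C and -0.90 in ZEB D, while Mmp9 stands at -0.14 and -0.25.

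The collagenases Mmp8 and Mmp13 cut fibrillar collagen. Mmp8 (chromosome 9), neutrophil collagenase, read 5.90, 5.93 and 6.10 on ZEB C arrays, 5.72, 5.78 and 5.73 on ZEB D arrays, and 5.64, 5.86 and 5.80 on SCR arrays. The ZEB C arrays were all above those of the other groups. The log2 fold change was 0.21 in ZEB C against SCR (-0.09 to 0.51; limma adjusted p = 0.812) and -0.23 in ZEB D against ZEB C (-0.53 to 0.07; limma adjusted p = 0.543). Mmp13 (chromosome 9), known from cartilage and bone, read 6.17, 6.26 and 7.08 on ZEB C arrays, 6.48, 6.42 and 6.44 on ZEB D arrays, and 6.36, 6.05 and 6.40 on SCR arrays. Each ZEB D array exceeded the SCR arrays by a small margin, and the highest value was again on ZEB C 12. The log2 fold change was 0.18 in ZEB D against SCR (-0.36 to 0.71) and 0.23 in ZEB C against SCR (-0.30 to 0.77), and the second was -0.06 without ZEB C 12. Mmp12 (chromosome 9), macrophage elastase, read 4.92, 5.06 and 5.50 on ZEB C arrays, 5.46, 5.22 and 5.10 on ZEB D arrays, and 5.05, 5.61 and 5.59 on SCR arrays. Its 3 groups overlapped, and its log2 fold changes were -0.26 in ZEB C (-0.74 to 0.23) and -0.16 in ZEB D (-0.64 to 0.33) against SCR.

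Mmp14 and Mmp25 are held at the cell surface, Mmp14 by a transmembrane segment and Mmp25 by a lipid anchor. Mmp14 (chromosome 14), which activates the Mmp2 zymogen together with Timp2, read 4.81, 5.16 and 6.44 on ZEB C arrays, 4.61, 5.11 and 5.36 on ZEB D arrays, and 4.89, 5.20 and 4.71 on SCR arrays. All groups overlapped. Its log2 fold change in ZEB C against SCR was 0.54 (-0.34 to 1.41; limma adjusted p = 0.858), and 0.05 (-0.54 to 0.64) without ZEB C 12. Mmp25 (chromosome 17), known from human neutrophils, read 5.13, 4.99 and 4.95 on ZEB C arrays, 5.21, 4.97 and 5.37 on ZEB D arrays, and 5.32, 5.22 and 5.06 on SCR arrays, with overlap between all groups. Its log2 fold changes were -0.18 in ZEB C (-0.52 to 0.17) and -0.02 in ZEB D (-0.36 to 0.33) against SCR.

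Of the inhibitors, Timp2 (chromosome 11) held the largest value of the family and the widest error. It read 5.55, 6.02 and 11.16 on ZEB C arrays, 5.18, 5.65 and 5.99 on ZEB D arrays, and 5.60, 5.64 and 6.05 on SCR arrays. ZEB C 12 exceeded the next highest array by 5.11 on the log2 scale, 34.5-fold, while the other 8 arrays overlapped. Only 4 of 19572 probe sets had a wider gap on that array. The log2 fold change in ZEB C against SCR was 1.81 (-0.91 to 4.53; limma adjusted p = 0.827), and it was 0.02 (-0.60 to 0.65) without ZEB C 12. Timp1 (chromosome X), an inducible inhibitor of most secreted metalloproteases, read 4.57, 4.62 and 5.98 on ZEB C arrays, 4.59, 4.97 and 5.34 on ZEB D arrays, and 4.44, 4.71 and 4.62 on SCR arrays. Its log2 fold change was 0.47 in ZEB C (-0.35 to 1.28) and 0.38 in ZEB D (-0.44 to 1.19) against SCR, and the first was 0.00 without ZEB C 12. Leaving out that array also narrowed the ZEB D interval of Timp1, to -0.08 to 0.84. Timp3 (chromosome 10), which is bound to the matrix and also inhibits ADAM sheddases, read 5.29, 5.44 and 5.41 on ZEB C arrays, 5.08, 5.12 and 5.31 on ZEB D arrays, and 5.27, 5.21 and 5.58 on SCR arrays. Its 3 groups overlapped, and its log2 fold changes were 0.03 in ZEB C (-0.31 to 0.37) and -0.18 in ZEB D (-0.52 to 0.16) against SCR. Timp2 and Timp3, the members whose windows hold the E-box, did not pass the test with either hairpin, and neither did any other member. Any part of the E-box in these values was not tested.

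**Figure D3:**
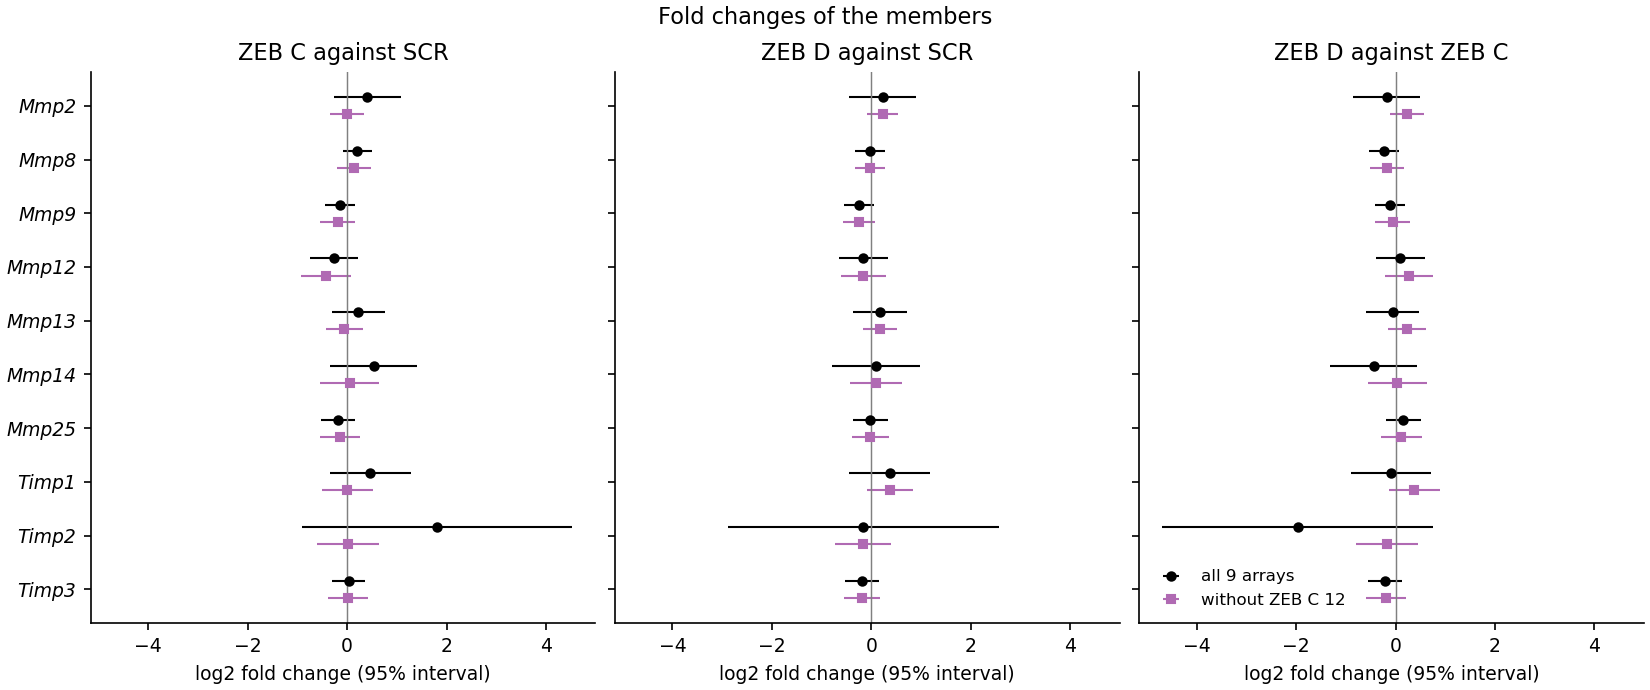
Log2 fold change with its 95% interval (horizontal axes) of the 10 members in ZEB C against SCR, ZEB D against SCR and ZEB D against ZEB C, from limma on all 9 arrays (black circles) and without ZEB C 12 (purple squares). Every interval includes 0, and that of Timp2 in ZEB C against SCR narrows from -0.91 to 4.53 with all arrays to -0.60 to 0.65 without ZEB C 12.

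For a few members the arrays of both groups did not overlap. In ZEB C against SCR this held for 1 of 10, Mmp8, which was higher, against 14.2% of all probe sets in either direction and 7.50% higher. In ZEB D against SCR it held for 3 of 10, against 17.0% of all probe sets; Mmp2 and Mmp13 were higher (10.3% of all probe sets) and Mmp9 was lower (6.65%). In ZEB D against ZEB C it held for 1 of 10, Mmp8, which was lower, against 15.2% in either direction and 6.26% lower. Among 10 genes these counts are near those shares. For each of these an exact two-sided permutation test gave p = 0.10, the smallest that 3 arrays against 3 allow.

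On ZEB C 12 several members were high together with matrix genes. It was the highest of the 9 arrays for 6 of the 10 members (Mmp2, Mmp8, Mmp13, Mmp14, Timp1 and Timp2) and for 13.5% of all probe sets. Of 24 measured matrix proteins that metalloproteases cut, it was the highest array for 15. Sparc, a collagen-binding secreted protein, read 5.71, 5.94 and 13.73 on ZEB C arrays, 6.19, 6.68 and 6.06 on ZEB D arrays, and 6.09, 6.15 and 5.81 on SCR arrays. Fn1, fibronectin, read 4.96, 5.03 and 10.71 on ZEB C arrays, 5.23, 5.18 and 5.13 on ZEB D arrays, and 4.79, 4.70 and 4.81 on SCR arrays. For both genes the other 8 arrays lay within 1 log2 unit of each other. The log2 fold changes in ZEB C against SCR were 2.44 for Sparc and 2.13 for Fn1, with adjusted p of 0.855 and 0.772 in limma, and they were -0.19 and 0.23 without ZEB C 12.

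Some fibroblast markers were also high on that array, and the endothelial ones were not. ZEB C 12 was the highest array for 7 of 11 measured fibroblast and endothelial markers, and their summed linear signal was 2285 on it, 922 and 965 on the other ZEB C arrays, 1015 to 1112 on ZEB D arrays and 881 to 1108 on SCR arrays. Acta2, smooth muscle actin, stood at 8.91 on ZEB C 12 against 4.91 to 5.96 elsewhere, and Postn, periostin, at 9.10 against 6.53 to 7.19. Col1a1, a fibrillar collagen gene, stood at 8.86 there against 7.49 to 8.47 elsewhere, while Col1a2 and Col3a1 stood at 6.80 and 5.74, below the median of 7.10, and Pecam1, Kdr and Cdh5, defining endothelial genes, at 7.67, 5.71 and 4.43, against 6.82 to 7.85, 4.92 to 5.61 and 4.41 to 4.95 elsewhere. Dcn, also a fibroblast marker, stood at 7.21 on ZEB C 12 against 5.09 to 6.03 elsewhere. The fibroblast markers Pdgfrb (5.92) and Lum (7.12) lay within the range of the other arrays. Macrophage markers summed to 2504 on ZEB C 12, 1224 and 1428 on the other ZEB C arrays, 1238 to 1366 on ZEB D arrays and 922 to 1069 on SCR arrays. Fcgr1, an Fc receptor gene, carried most of that sum, at 10.65 on ZEB C 12 against 7.84 to 9.12 elsewhere. Without Fcgr1, left out after seeing the data, the other 11 macrophage markers summed to 897 on ZEB C 12, within the range of 688 to 1042 of the other arrays. Adgre1, Csf1r and C1qa, defining macrophage genes, stood at 7.09, 5.15 and 5.59 on ZEB C 12. Elsewhere they ran from 6.45 to 7.13, 5.21 to 5.71 and 4.91 to 5.62. ZEB C 12 was the highest array for 3 of the 12 macrophage markers. These were Fcgr1, Msr1 (6.30 against 5.49 to 6.13) and Itgax (5.51 against 5.04 to 5.40). T and NK cell markers summed to 73116 on ZEB C 12, within the range of 61198 to 93533 of the other arrays, a sum made mostly of Cd3g and Cd3e. Of the 12 T and NK markers 1 was called, Klrk1, the NK receptor NKG2D. The call was in ZEB C against SCR, where 0.945% of all probe sets were called. Klrk1 read 8.75, 8.72 and 9.91 on ZEB C arrays, 7.60, 7.90 and 8.43 on ZEB D arrays, and 7.60, 6.93 and 6.92 on SCR arrays. It rose in ZEB C, with a log2 fold change of 1.98 ± 0.36 (SE; adjusted p = 0.0432 in limma), a call lost in 10 of 17 alternative settings, ZEB C 12 left out among them. In bulk RNA a few cells with much of a transcript and more of it in every cell cannot be told apart, and the part of other cells in these values was not tested.

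**Figure D4:**
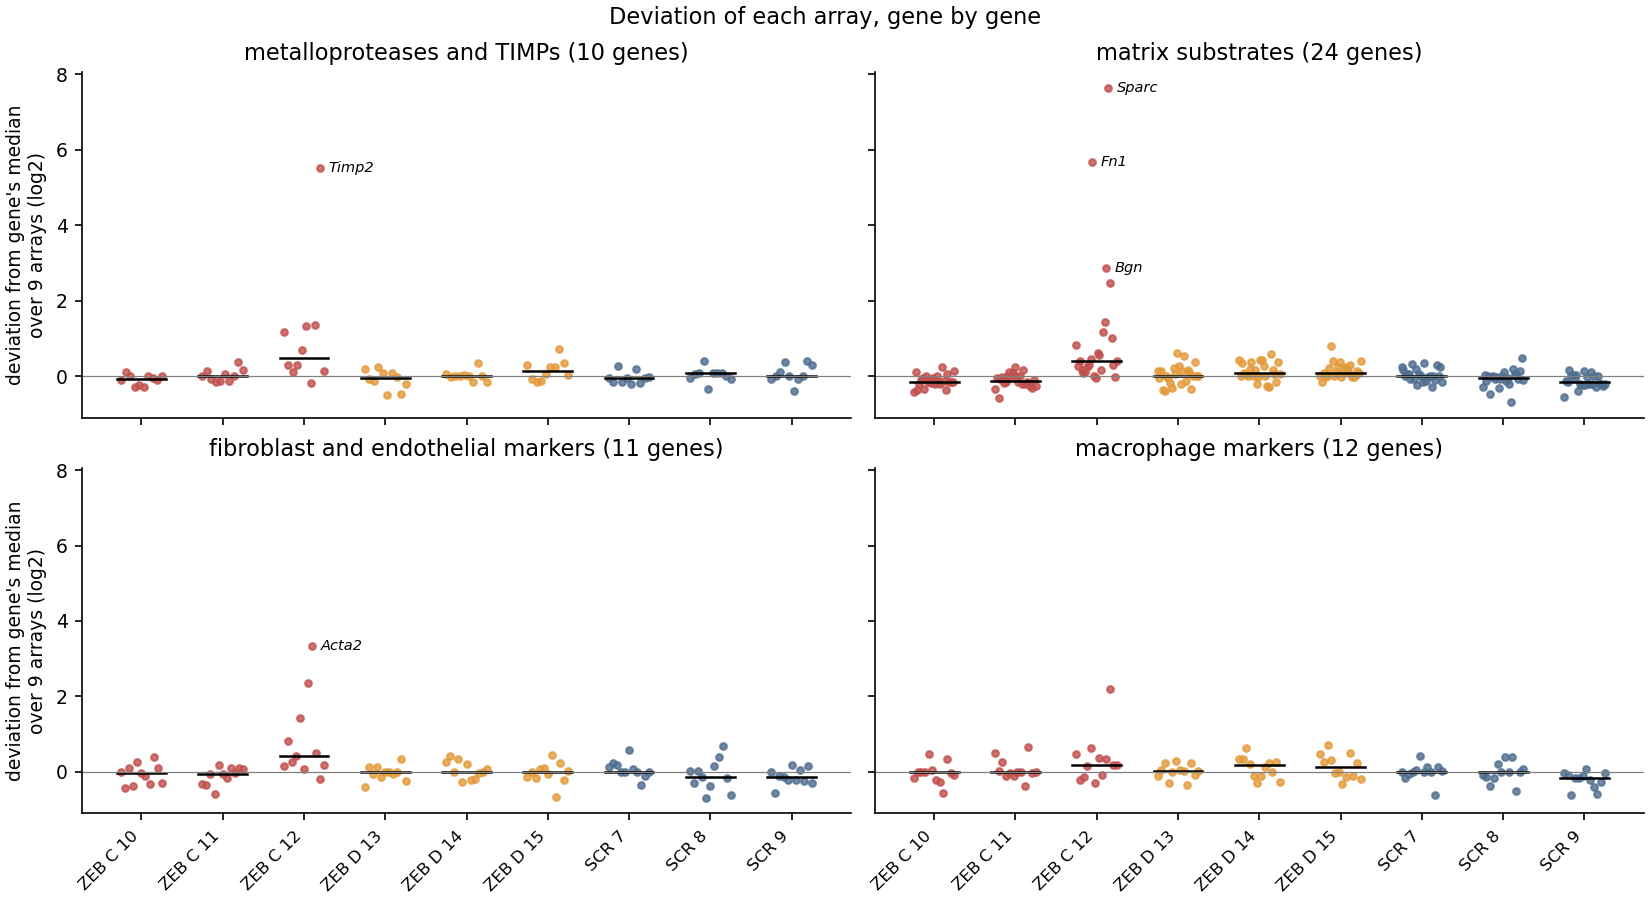
Deviation of each array from the median of each gene over the 9 arrays (vertical axes, log2), for the 10 members, 24 matrix substrates, 11 fibroblast and endothelial markers and 12 macrophage markers. Each point is a gene, black lines are medians over the genes of an array, and points above 2.5 carry the gene's name. ZEB C 12 has a median of 0.49 for the members, with Timp2, Sparc, Fn1, Bgn and Acta2 far above the other arrays.

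The genes most like the members were looked for over all arrays. Timp2, Mmp14 and Timp1 had the widest ranges of group means, 1.97, 0.54 and 0.47 on the log2 scale. Among 9313 genes with a mean above 7.10, the 3 most like Timp2 over the 9 arrays were Tceal9 (Pearson's r of 0.994), Cd9 (0.983) and Cd63 (0.977), the last a tetraspanin that binds Timp1 at the cell surface. Over the 8 arrays without ZEB C 12, an alternative chosen after seeing the data, these values were 0.703, 0.729 and -0.344. Tceal9 stood at 11.49 on ZEB C 12 against 6.4 to 7.05 elsewhere, and Cd9 at 9.69 against 7.12 to 7.77. Cd63 stood at 13.26 against 7.48 to 8.01. The likeness of all 3 to Timp2 over the 9 arrays thus rested largely on ZEB C 12, and that of Cd63 wholly. The genes most like Mmp14 were Laptm4b (0.958), the chemokine gene Ccl2 (0.946) and Clec10a (0.945), with 0.787, 0.704 and 0.893 without ZEB C 12. Those most like Timp1 were Cdadc1 (0.967), Zdhhc2 (0.954) and Ccl2 (0.946), with 0.931, 0.843 and 0.824 without it. Among the members, Mmp2 and Timp2 had an r of 0.931 with ZEB C 12 and -0.102 without it, and Mmp14 and Timp1 had 0.920 and 0.699. The arrays share processing and the genes were picked as the highest of many, so these values describe the arrays and carry no test.

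Of the other metalloproteases of the family and Timp4, 0 of 15 measured were called in any comparison with limma, nor did any reach an unadjusted p under 0.05. Of all probe sets 8.77% did so in ZEB C against SCR, 13.6% in ZEB D against SCR and 11.7% in ZEB D against ZEB C. The largest log2 fold changes in ZEB C against SCR were 0.37 for Mmp3, stromelysin-1, and 0.31 for Timp4. In ZEB D against SCR they were 0.48 for Mmp10, stromelysin-2, and 0.32 for Mmp20, the tooth enamel protease. In ZEB D against ZEB C they were 0.45 for Mmp10 and -0.37 for Mmp3. Of these 15 genes 1 had a mean above 7.10, Mmp20, which ran from 7.04 to 7.86 over the arrays. Mmp3 lay above 7.10 on 4 arrays, Mmp19 on 3 and Mmp23 on 2, and Mmp11 stood at 8.09 on ZEB C 12.

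Of 17 ADAM and ADAMTS proteases measured, relatives that shed surface proteins or cut proteoglycans, 0 were called in any comparison with limma. In each comparison 1 had an unadjusted p under 0.05, against 8.77%, 13.6% and 11.7% of all probe sets. Adam10, a sheddase, had the largest log2 fold change in ZEB D against SCR. It read 11.88, 12.10 and 12.10 on ZEB C arrays, 11.90, 11.93 and 11.05 on ZEB D arrays, and 12.77, 12.48 and 12.74 on SCR arrays. The arrays of both hairpins lay below all SCR arrays, with log2 fold changes of -0.64 in ZEB C (limma adjusted p = 0.418) and -1.04 in ZEB D (limma adjusted p = 0.104). The ZEB D difference passed with array weights (adjusted p = 0.0212 in limma) and with array sets as covariate (adjusted p = 0.0463 in limma). The array sets were drawn from the same residuals that the test uses. Both settings also raised the number of probe sets called in every comparison. Passing there is therefore no separate evidence for Adam10. Adam17, the TNF-converting enzyme, had log2 fold changes of -0.75 in ZEB C (-2.06 to 0.57) and -1.0 in ZEB D (-2.32 to 0.31), and leaving out 1 array moved these to -1.11 to -0.28 and -1.62 to -0.66, the smaller values without ZEB C 12 and without ZEB D 15. In ZEB D against ZEB C the values were -0.73 for Adam9 and -0.40 for Adam10.

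Of 17 proteases that activate metalloprotease zymogens or belong to the plasminogen activator system, 0 were called in any comparison with limma. In ZEB C against SCR, ZEB D against SCR and ZEB D against ZEB C, 1, 2 and 1 had an unadjusted p under 0.05. The shares of all probe sets were 8.77%, 13.6% and 11.7%. In ZEB C against SCR the largest log2 fold changes were -1.05 for St14, the surface protease matriptase, and 0.89 for Ctsb, cathepsin B. In ZEB D against SCR they were -1.73 for Pcsk7, a furin-like convertase, and 0.62 for Plau, urokinase. St14 (1.56) and Pcsk7 (-1.16) were also the largest in ZEB D against ZEB C. Of 14 transcription factors known to act on metalloprotease promoters, 0 were called in limma. In the same order of comparisons 3, 1 and 2 had an unadjusted p under 0.05, against the same shares of all probe sets. Egr1 (1.31) and Junb (-0.93), an AP-1 subunit, had the largest values in ZEB C against SCR. Fosb (1.99) and Jund (-1.19), also AP-1 subunits, had them in ZEB D against SCR, and Fosb (2.04) and Egr1 (-1.88) in ZEB D against ZEB C. Fosb stood at 13.56 on ZEB D 15 and at 7.38 to 8.38 on the other 8 arrays, and without ZEB D 15 its log2 fold change in ZEB D against SCR was 0.17. That of Jund ran from -2.47 without ZEB D 13 to -0.28 without ZEB D 14. Of the 24 matrix substrates 0 were called in limma, with 1, 1 and 0 at an unadjusted p under 0.05, against those same shares. Their largest values in ZEB D against SCR were 0.41 for Fn1 and 0.39 for Col1a1, and in ZEB D against ZEB C they were -2.15 for Sparc and -1.72 for Fn1.

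The list of other inhibitors and surface partners held the only genes of the metalloprotease lists that were called. Of 17 measured, 1 rose and 1 fell in ZEB C against SCR, 1 fell in ZEB D against SCR, and 1 was lower in ZEB D than in ZEB C. In all, 0.659% of probe sets were called higher and 0.286% lower in ZEB C against SCR, 0.445% lower in ZEB D against SCR and 0.542% lower in ZEB D against ZEB C. The median log2 fold changes of the list were 0.05, -0.11 and -0.18, against 0.00, 0.04 and 0.04 for all probe sets. Cd44, the hyaluronan receptor that docks Mmp9 at the cell surface, read 10.20, 9.71 and 11.71 on ZEB C arrays, 8.98, 8.16 and 8.41 on ZEB D arrays, and 7.16, 6.85 and 7.17 on SCR arrays. The 3 groups did not overlap, with ZEB C highest. Cd44 rose in ZEB C, with a log2 fold change of 3.48 ± 0.45 (SE; limma adjusted p = 0.0107), a call that was lost without SCR 9 (limma adjusted p = 0.0562). Its difference in ZEB D against SCR, 1.46 ± 0.45, missed the threshold in limma (adjusted p = 0.211), and so did that in ZEB D against ZEB C, -2.02 ± 0.45 (adjusted p = 0.0947 in limma).

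Spock2, testican-2, a secreted proteoglycan known from human cells to bear on membrane-type metalloproteases, read 6.31, 6.54 and 6.47 on ZEB C arrays, 7.13, 6.52 and 6.68 on ZEB D arrays, and 8.51, 8.19 and 9.09 on SCR arrays. The arrays of both hairpins lay below every SCR array. Its log2 fold change was -2.16 ± 0.25 in ZEB C (SE; limma adjusted p = 0.00596) and -1.82 ± 0.25 in ZEB D (limma adjusted p = 0.0188). The ZEB D call was lost without SCR 7, SCR 9, ZEB D 14 or ZEB D 15, and with only the groups compared in the fit, with adjusted p up to 0.0961 in limma. Itga2, the collagen-binding integrin alpha 2, read 9.73, 9.03 and 8.68 on ZEB D arrays, 10.81, 10.58 and 11.43 on ZEB C arrays, and 10.41, 10.17 and 10.36 on SCR arrays. The ZEB D arrays were all below, and the ZEB C arrays all above, the SCR arrays. Itga2 was lower in ZEB D than in ZEB C, with a log2 fold change of -1.79 ± 0.29 (SE; adjusted p = 0.0282 in limma). Leaving out SCR 7 or 9 or any of the ZEB C and ZEB D arrays other than ZEB D 13 ended that call, and so did a fit of only the groups compared. Reck, a membrane-anchored inhibitor of metalloproteases, had log2 fold changes of -0.34 in ZEB C and -0.33 in ZEB D against SCR, against an SE of 0.26. Reck was picked for naming after its values were seen.

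**Figure D5:**
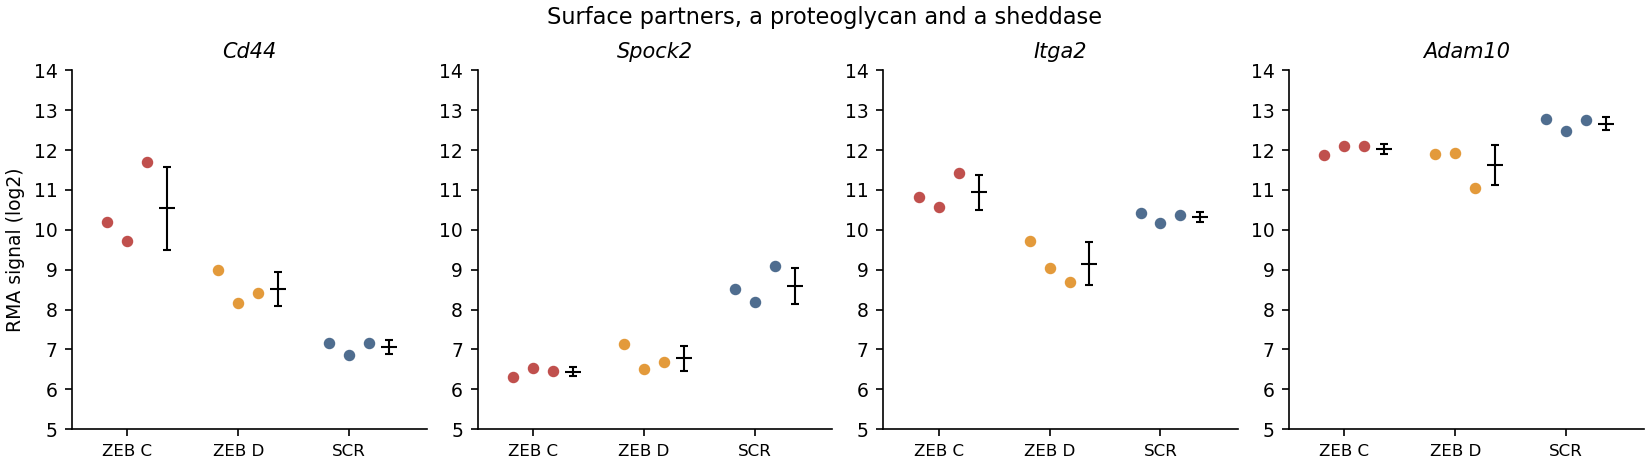
Log2 RMA signal (vertical axes) of Cd44, Spock2, Itga2 and Adam10 on ZEB C, ZEB D and SCR arrays. Each coloured point is 1 array and black bars are means ± SD (n = 3). Cd44 is highest on ZEB C arrays, Spock2 and Adam10 are lower on the arrays of both hairpins than on SCR arrays, and Itga2 lies above SCR on ZEB C arrays and below it on ZEB D arrays.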

How the data were processed

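Biotin-labelled total RNA from C1498 cells was hybridised to 1-colour arrays, 9 in all, grouped by their titles; per the submitters' processing notes, RMA and the Transcriptome Analysis Console were used, and no version or genome build is given in the sources used here. The deposited score values are linear RMA signals that lack their decimal point. The 199854 cells were returned to log2 values by the place of the point that makes log2 a multiple of 0.01, within 1e-06 steps. Of 22206 probe sets, 19572 with 1 gene symbol were tested with limma 3.58.1 in R 4.3.3 (means per group, all 9 arrays, empirical Bayes, two-sided, Benjamini-Hochberg over all 19572, called under 0.05). Intervals are 95% intervals of the moderated fit. Their spread is pooled over the 3 groups, so an outlying array also widens the intervals of comparisons that do not include it. No arrays held identical values; within a group, pairs of arrays had Pearson's r of 0.9777 to 0.9949 over the probe sets, and pairs from different groups 0.9684 to 0.9889. The number of arrays limits the precision. Only the limma fit was tested on simulated data. Their noise was independent between probe sets and arrays, without the shared deviation or the outlying array of the real data.

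The members and lists were chosen with earlier results of these data known. The rule named the 10 members, called genes of each list (otherwise its 2 largest fold changes), and for 3 members the 3 genes most like them, without predicted or olfactory genes. Alternatives covered normalization, dim and unnamed probe sets, the arrays in the fit, the variance prior, array weights, array sets, the threshold and each array left out.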

Additional observations from a re-analysis of the deposited data

Results flagged for a closer look

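Itga2 differed between the arrays labelled ZEB D and ZEB C, by the test of that difference itself: its log2 fold change in ZEB D against ZEB C was -1.79 ± 0.29 (SE; limma adjusted p = 0.0282), lower in 3 of 3 ZEB D arrays than on any ZEB C array. That call was lost in 8 of 17 alternative settings. Against SCR it was -1.17 in ZEB D and 0.63 in ZEB C, neither of which passed the test (limma adjusted p of 0.129 and 0.614). No member of the metalloprotease family passed that test between ZEB D and ZEB C.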

How the results depend on the processing

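None of the 10 members was called under any alternative, and the lowest adjusted p of a member was 0.135; all members fell out where probe sets below the median were left out, and none has another probe set. Of 480 repeated member fold changes 27 were reversed and 453 were not. Those 453 include some that all but vanished. Without ZEB C 12, Mmp2 went from 0.41 to 0.00 and Timp2 from 1.81 to 0.02 in ZEB C against SCR. Reversed were, with array weights, Mmp2 (0.12), Mmp13 (0.14), Mmp14 (0.04) and Timp1 (0.36) in ZEB D against ZEB C, Mmp13 (-0.04) and Timp3 (-0.08) in ZEB C against SCR, Mmp25 (0.05) in ZEB D against SCR and Mmp3 (0.10) in ZEB D against ZEB C; with array medians subtracted and after quantile normalizing again, Timp3 (-0.04 and 0.00) in ZEB C against SCR; and, with array sets (2 sets found by a principal component of the residuals) as covariate, Mmp14 (-0.18), Jund (0.16) and Fn1 (-0.20) in ZEB D against SCR. Calls were gained with array sets by Adam17 (-0.75), St14 (-1.05) and Ctsb (0.89) in ZEB C against SCR, St14 (1.96) and Zeb1 (-0.81) in ZEB D against ZEB C, and Adam10 (-0.97) and Pcsk7 (-1.29) in ZEB D against SCR; and with array weights by Adam10 (-1.22) and Pcsk7 (-2.44) in ZEB D against SCR and Zeb1 (-0.87) in ZEB D against ZEB C. Leaving out 1 array gave ranges across 0 in ZEB C against SCR for Mmp13 (-0.06 to 0.40), Timp3 (-0.04 to 0.14) and Sparc (-0.19 to 3.82); in ZEB D against SCR for Mmp8 (-0.09 to 0.02), Mmp14 (-0.07 to 0.30), Mmp25 (-0.11 to 0.09) and Timp2 (-0.35 to 0.06); and in ZEB D against ZEB C for Mmp2 (-0.41 to 0.23), Mmp12 (-0.02 to 0.27), Mmp13 (-0.22 to 0.23), Mmp14 (-0.77 to 0.04), Timp1 (-0.33 to 0.37), Mmp3 (-0.72 to 0.06), Sparc (-3.52 to 0.49) and Fn1 (-2.69 to 0.19). The probe sets called, ZEB C against SCR (185), probe sets called, ZEB D against SCR (165) and probe sets called, ZEB D against ZEB C (166), became 572, 1076 and 833 with array weights, 875, 772 and 700 with array sets, and 316, 300 and 313 at a threshold of 0.10. With only the 2 groups compared they were 68 in ZEB D against SCR and 81 in ZEB D against ZEB C. Leaving out 1 array gave 43 to 214, 14 to 213 and 49 to 162, lowest without SCR 9, SCR 9 and ZEB D 15. The component behind the array sets held 57.9% of the residual variance. It set SCR 8, ZEB C 12, ZEB D 14 and ZEB D 15 apart from the other arrays, so ZEB D has more arrays in that set than SCR or ZEB C. These sets were drawn from the same residuals that the test uses, so calls gained with them are no separate evidence. The causes of these shifts were not tested. No paired analysis was possible because the groups share no replicate number. With 3 arrays a group, changes of a member smaller than its interval cannot be seen.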

Other observations

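The array ZEB C 12 held other genes that stood alone. On it 59 probe sets exceeded each of the other 8 arrays by more than 2 log2 units, against 2 on ZEB D 14, 1 on ZEB D 15 and 0 on each of the other 6 arrays. After Sparc the widest gap was that of Cpe, carboxypeptidase E, at 14.22 against 6.72 to 7.72 elsewhere. Efemp1, a fibulin of the extracellular matrix, stood at 11.09 against 6.01 to 6.29, and Htra1, a secreted serine protease, at 8.78 against 5.16 to 5.63. Pcolce, which helps collagen processing, stood at 8.62 against 5.69 to 6.04, and Thbs2, a thrombospondin, at 8.77 against 6.04 to 6.44. Genes of cytotoxic cells were also among the 59: Gzmc stood at 11.32 against 4.07 to 7.34 and Xcl1 at 13.57 against 7.27 to 10.97. These genes were named after their values were seen.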
